A study of Mus musculus with 19 samples.

Results

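The ADAM, ADAMTS and MMP proteases and their TIMP inhibitors were described across 7 groups of mouse embryonic kidney cells. Members were all gene symbols shared by both expression tables that are an ADAM, ADAMTS, ADAMTSL, MMP or TIMP name followed by a number, with a letter allowed after ADAM and MMP numbers. This gave 70 genes, of 20137 names in the table for E16.5 (the embryonic day) and 24427 in that for E14.5. They comprised 22 ADAM, 19 ADAMTS, 5 ADAMTSL, 20 MMP and 4 TIMP genes. The E14.5 table alone held 14 further matching symbols. Of these 14, Mmp3 and Mmp7 reached 0.264 and 0.465 RPKM (a read density scaled to gene length and library depth) at their highest, and the other 12 were listed at 0.

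All animals were of the CFW strain. The E16.5 groups without a labelled allele were unsorted NZC (nephrogenic zone cells, from the outer kidney where nephrons form) and their SIX2+ and SIX2− fractions after staining for the SIX2 protein (3 libraries each). The titles name MARIS, a method that recovers RNA from fixed cells sorted on an intracellular protein. SIX2 is the transcription factor that marks nephron progenitors. The allele Six2TGC/+, which places a GFP-Cre fusion under Six2 regulatory sequence, was carried by the E16.5 kidneys that gave the GFP+ and GFP− fractions, so the controls have it too (3 libraries each). At E14.5, Tdt+ and Tdt− cells were sorted from Foxd1Cre;Tdt kidneys (2 libraries each). Foxd1 marks stromal progenitors, and the Cre-activated reporter labels cells with a history of Foxd1 expression as well as cells that still express it. The study's subject was the 2 progenitor types. Whether replicate libraries stem from different animals is not stated, and the p-values then reflect only library-to-library spread, which may be technical.

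ADAM proteases sit in the plasma membrane and cut the ectodomains off other membrane proteins, among them Notch receptors, growth factor precursors and cadherins. ADAMTS proteases are secreted and cleave matrix substrates such as versican, procollagens and fibrillin-associated proteins, and ADAMTSL proteins share their ancillary domains but lack the protease domain. MMPs are secreted or membrane-anchored zinc proteases that degrade collagens and other matrix, and TIMPs bind and block the active sites of MMPs and of some ADAM and ADAMTS proteases. In the developing kidney, nephron progenitors lie as a cap around the ureteric tip, and stroma surrounds them with most of the fibrillar matrix.

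The estimated depth in megareads (M) was 26.1 M to 45.7 M in 14 of the E16.5 libraries and 3.10 M in NZC replicate 2, which stands apart. It was 30.4 M and 26.4 M in the Tdt− libraries and 9.40 M and 8.42 M in the Tdt+ libraries. A level of 1 RPKM in a gene of 5 kb corresponds to 130 to 228 reads in the deep E16.5 libraries, to 15.5 in NZC replicate 2 and to 42.1 to 47.0 in the Tdt+ libraries. These numbers are approximate. The sorts matched their labels. Six2 averaged 351 ± 92.6 RPKM (SD) in SIX2+ against 19.6 ± 23.6 in SIX2− cells and 335 ± 20.4 in GFP+ against 7.45 ± 8.08 in GFP− cells, and Foxd1 averaged 153 ± 72.9 in Tdt+ against 27.5 ± 3.34 in Tdt− cells. Summed over 6 stromal markers, levels were 46.9 to 54.8 RPKM in SIX2+ and 49.7 to 70.2 in GFP+ libraries against 812 to 1321 in SIX2− and 1553 to 2117 in GFP− libraries. Tdt− cells kept stromal markers (1644 to 2252 RPKM against 1236 to 2005 in Tdt+ cells), so Tdt− is not a fraction without stroma by these markers.

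Upstream windows were read for 43 of the 70 members from RefSeq (GRCm38.p6), as the 250 bases before the annotated start, in 47 windows. They are shown because the windows of the chromosome 9 MMP block differ in these letters from those of other members. The GC box was searched as GGGCGG. The TATA box was searched as TATAAA. The AP-1 site was searched as TGANTCA. The forkhead core was searched as TGTTTAC. Capitals mark a match on either strand, and overlapping matches count separately. Adam10, Mmp14 and Adamts2 stand for members expressed in some groups, and Mmp13 and Mmp1a for the chromosome 9 block.
Adam10, chr9:70678732-70678981, plus strand: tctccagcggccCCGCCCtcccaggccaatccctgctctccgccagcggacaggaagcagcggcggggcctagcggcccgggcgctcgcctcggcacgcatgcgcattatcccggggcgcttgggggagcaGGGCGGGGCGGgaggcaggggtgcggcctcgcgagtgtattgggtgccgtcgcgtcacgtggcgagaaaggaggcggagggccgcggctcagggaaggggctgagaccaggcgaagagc
Mmp14, chr14:54431348-54431597, plus strand: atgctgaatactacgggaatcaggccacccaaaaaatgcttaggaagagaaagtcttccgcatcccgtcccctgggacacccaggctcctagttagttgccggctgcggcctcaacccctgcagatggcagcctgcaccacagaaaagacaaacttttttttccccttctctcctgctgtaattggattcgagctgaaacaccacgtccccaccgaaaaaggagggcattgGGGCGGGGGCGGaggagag
Adamts2, chr11:50601835-50602084, plus strand: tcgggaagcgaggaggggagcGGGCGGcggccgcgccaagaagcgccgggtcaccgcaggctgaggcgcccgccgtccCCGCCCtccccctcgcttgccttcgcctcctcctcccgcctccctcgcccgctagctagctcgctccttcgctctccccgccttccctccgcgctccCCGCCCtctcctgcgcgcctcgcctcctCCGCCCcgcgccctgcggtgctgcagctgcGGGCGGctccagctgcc
Mmp13, chr9:7272264-7272513, plus strand: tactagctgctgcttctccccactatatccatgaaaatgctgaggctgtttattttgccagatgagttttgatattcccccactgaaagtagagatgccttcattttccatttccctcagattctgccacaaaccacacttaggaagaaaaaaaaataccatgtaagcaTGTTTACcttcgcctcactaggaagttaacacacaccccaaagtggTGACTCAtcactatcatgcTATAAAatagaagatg
Mmp1a, chr9:7463891-7464140, plus strand: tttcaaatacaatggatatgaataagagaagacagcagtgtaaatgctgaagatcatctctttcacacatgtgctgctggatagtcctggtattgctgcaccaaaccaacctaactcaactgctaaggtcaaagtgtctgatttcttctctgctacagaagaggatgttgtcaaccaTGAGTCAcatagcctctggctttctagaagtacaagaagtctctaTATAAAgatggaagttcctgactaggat

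Mmp13 and Mmp1a belong to a block of 7 member genes on chromosome 9 (positions 7272514 to 7674979, Mmp1a, Mmp8, Mmp10, Mmp12, Mmp13, Mmp20 and Mmp27) that held interstitial collagenases, a stromelysin and macrophage elastase. No gene of the block exceeded 0.498 RPKM (Mmp8) in any of the 19 libraries. A GC box match was in 0 of its 8 windows and in 24 of the 39 windows of other members, a TATA box match in 4 of 8 and 3 of 39, and an AP-1 match in 5 of 8 and 1 of 39. Median GC content was 40.2% in the block and 63.2% in the other windows. Among all 32851 RefSeq windows of this length, 32.7% held the GC box, 12.4% the TATA box, 6.75% the AP-1 letters and 3.17% the forkhead core, against 51.1%, 14.9%, 12.8% and 8.51% of the member windows. A core of SIX-family sites, TCANGTT, was in 6.38% of member windows and 9.73% of all windows. These are letter matches and were not tested as sites.

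At 1 RPKM or more in the mean of at least 1 group there were 42 members, and at 10 RPKM or more 17. The other 28 stayed under 1 RPKM in every group mean, 11 of them under 0.1, and Mmp20, the enamel protease, was listed at 0 in all 19 libraries. Most of these 28 are known from testis, tooth, leukocytes or inflamed tissue (Adam2, Adam3, Adam28, Mmp8, Mmp12). Mmp9, the gelatinase of leukocytes and osteoclasts, had the highest mean among the members left out of the tests, at 1.03 RPKM in Tdt− cells. Its values were 0.906, 1.30 and 0.436 RPKM in SIX2− libraries and 0.952, 1.10 and 0.998 in GFP− libraries, against 0.0800 to 0.414 in the 6 SIX2+ and GFP+ libraries. The 7 leukocyte markers summed to 75.0 to 107 RPKM in SIX2− and GFP− libraries and to 0.247 to 10.2 in SIX2+ and GFP+ libraries, and their part in the Mmp9 levels was not tested. The 5 most abundant members of a library carried 51.0% to 64.3% of the summed member RPKM.

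**Figure D1:**
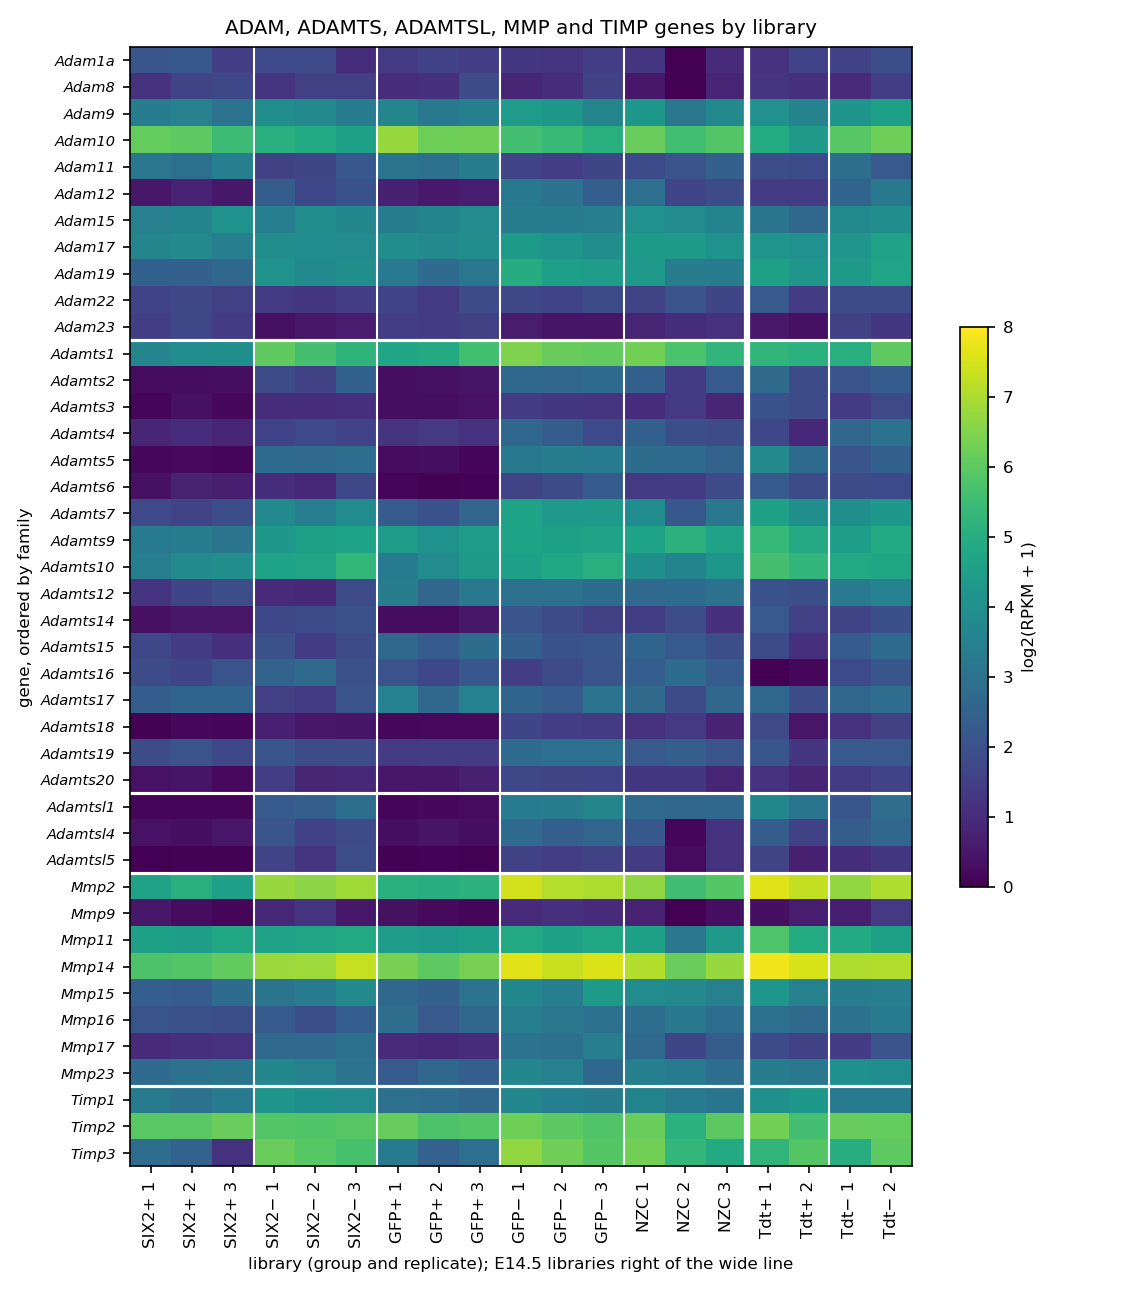
Level of the 42 members with a group mean of at least 1 RPKM in each of the 19 libraries, as log2(RPKM + 1) on the colour scale, with genes in rows by family and libraries in columns by group. Mmp2, Mmp14, Timp2 and Adam10 are bright in most columns, Adamts5, Adamtsl1 and Adamtsl5 are dark in the 6 SIX2+ and GFP+ columns, and NZC replicate 2 is dark for several genes that the other NZC libraries express.

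Of the 70 members, 41 passed the filter on low values (at least 1 RPKM in at least 3 of the 15 E16.5 libraries) and were tested, and 29 were not. The same 41 passed in the E14.5 table (at least 1 RPKM in at least 2 of 4 libraries). Members that pass through a single group had to differ, so the counts below describe the tested genes only. A gene was called at an adjusted p under 0.05, and fold changes are on the log2(RPKM + 1) scale. Libraries were not paired by replicate number in these tests, except where a replicate block is named.

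Members were mostly lower in nephron progenitors. In SIX2+ against SIX2− cells, 4 members were called higher and 21 lower, and of all 12798 genes tested 24.2% were called, 8.36% as higher and 15.9% as lower. The members' median log2 fold change was −0.72, and that of all genes was 0.04. In GFP+ against GFP− cells, 3 members were higher and 25 lower, where 32.9% of all genes were called (15.9% higher and 17% lower), with medians of −1.0 for members and 0.09 for all genes. The libraries of the groups compared did not overlap for 30 of the 41 members in the SIX2 sort (73.2%, against 47.3% of all genes) and for 32 in the GFP sort (78%, against 53% of all genes). Both sorts gave Adam10, Adam11 and Adam23 as higher and 20 members as lower, which is 95.2% of the 21 lower in the SIX2 sort and 80% of the 25 lower in the GFP sort. No member was called in opposite directions. Among members lower in both sorts, Adam12, Adamts2, Adamts3, Adamts5, Adamts14, Adamts20, Adamtsl1, Adamtsl4 and Adamtsl5 averaged under 1 RPKM in SIX2+ and GFP+ cells. They passed the filter through other groups, so it favoured this direction for them. Adam23 was under 1 RPKM in every SIX2− and GFP− library, so the filter favoured the higher direction for it. For these members the shared calls are no independent support. When NZC replicate 2 was left out of the fit, the member counts were 4 higher and 22 lower in the SIX2 sort (1729 and 2455 of all genes) and 3 and 27 in the GFP sort (3006 and 2667).

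The split of all genes moved with the scaling. In the SIX2 sort 1070 genes were higher and 2031 lower, and 1572 each way after quantile normalisation, with 6 members higher and 18 lower. Of genes called in the GFP sort 48.3% were higher, and 36.9% after rescaling to TPM, with 3 members higher and 25 lower as before. With the replicate number as a block the balance of all genes turned, to 3350 higher and 2953 lower in the SIX2 sort (members 5 and 22) and 3620 and 2791 in the GFP sort (members 5 and 28). Markers of stroma (6 of 6), endothelium (6 of 6), leukocytes (7 of 7), mural cells (5 of 5) and ureteric epithelium (5 of 5) were called lower in SIX2+ cells. All of these markers were likewise called lower in GFP+ cells. Of 6 erythroid markers, 0 were called in the SIX2 sort and 6 were lower in GFP+ cells. Of 5 podocyte markers, 4 were lower and 1 higher in each sort. Mural marker sums were 4.24 to 10.2 RPKM in SIX2+ and GFP+ libraries against 108 to 197 in SIX2− and GFP− libraries. The part of these cell types in the member results was not tested, and in bulk samples fewer cells of a type and less RNA per cell cannot be told apart.

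**Figure D2:**
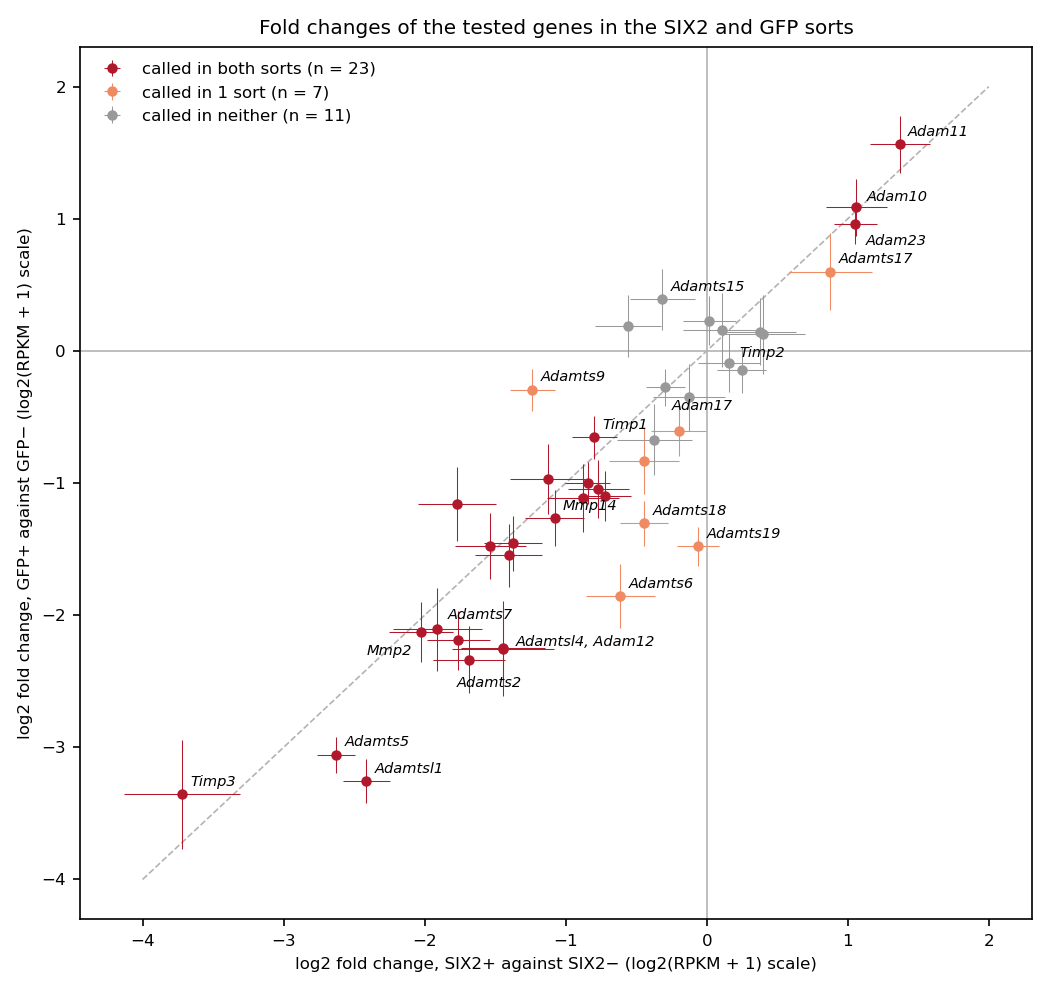
Fold change of the 41 tested members in the SIX2 sort (horizontal axis) and the GFP sort (vertical axis), both on the log2(RPKM + 1) scale, with standard errors as bars and the line of equal change dashed. The 3 members higher in both sorts lie at upper right, Timp3, Adamts5 and Adamtsl1 lie farthest down, and Adamts19, Adamts18 and Adamts6 lie below the line.

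Among the sheddases, Adam10 was higher in nephron progenitors. ADAM10 makes the ligand-dependent cut in Notch receptors and sheds cadherins and ErbB ligands. Adam10 measured 67.3, 63.3 and 44.2 RPKM in SIX2+ and 31.0, 28.3 and 22.4 in SIX2− libraries. The GFP fractions gave 108, 74.5 and 76.2 RPKM in GFP+ and 47.4, 41.1 and 31.5 in GFP− libraries. In the SIX2 sort and in the GFP sort every positive library lay above every negative one. The log2 fold changes were 1.06 ± 0.22 (SE, adjusted p = 0.00218) and 1.09 ± 0.22 (adjusted p = 0.00142). Unsorted NZC measured 70.4, 46.3 and 57.1 RPKM, which overlapped the SIX2+ libraries.

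Adam17, the sheddase of TNF and of several EGF receptor ligands, moved less. It measured 11.3, 12.7 and 9.61 RPKM in SIX2+ against 14.46, 13.7 and 13.5 in SIX2− libraries, and 14.6, 12.5 and 14.53 in GFP+ against 19.7, 16.7 and 14.8 in GFP− libraries. The groups did not overlap in either sort, yet neither fold was called (−0.29 ± 0.14, adjusted p = 0.159, and −0.28 ± 0.14, adjusted p = 0.149). With the replicate block it was called in the SIX2 sort (adjusted p = 0.0282). The level of Adam10 per level of Adam17 was 4.60 to 5.93 in SIX2+ and 5.25 to 7.34 in GFP+ libraries, and 1.66 to 2.14 in SIX2− and 2.13 to 2.46 in GFP− libraries, so these ranges did not overlap.

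Adam12 and Adam19, meltrins expressed in mesenchyme and muscle, were lower in progenitors. Adam19 measured 4.60, 4.53 and 5.48 RPKM in SIX2+ against 16.4, 12.8 and 14.47 in SIX2− libraries (−1.41 ± 0.24, adjusted p = 0.000509), and 8.73, 5.94 and 7.74 in GFP+ against 29.8, 21.8 and 19.9 in GFP− libraries (−1.55 ± 0.24, adjusted p = 0.000175). Adam12 measured 0.419, 0.706 and 0.442 RPKM in SIX2+ against 4.15, 2.36 and 3.06 in SIX2− libraries, and 0.670, 0.461 and 0.570 in GFP+ against 8.48, 7.06 and 4.35 in GFP− libraries. Its folds were −1.44 ± 0.30 (adjusted p = 0.00234) and −2.25 ± 0.30 (adjusted p = 4.47e-05).

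Adam9 and Adam15, broadly expressed membrane ADAMs, did not pass the test in either sort. Adam9 averaged 9.17 ± 1.71 RPKM in SIX2+ and 12.2 ± 2.60 in SIX2− cells (SD, n = 3 each), and measured 11.5, 8.34 and 9.99 in GFP+ against 20.5, 18.02 and 11.6 in GFP− libraries (−0.67 ± 0.27, adjusted p = 0.069). With the replicate block Adam9 was called lower in both sorts (adjusted p = 0.0107 and 0.0084), and without GFP− replicate 3 its GFP-sort fold was −0.90 with an adjusted p of 0.0268. Adam15 ranged from 9.95 to 15.9 RPKM over the 6 libraries of the SIX2 sort and from 9.23 to 13.6 over those of the GFP sort. Adam8, a leukocyte ADAM, and Adam1a stayed under 4 RPKM in all libraries.

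Adam11, Adam22 and Adam23, known from neurons, lack a working protease site. Adam11 and Adam23 were higher in progenitors, and Adam22, a receptor of LGI1 at synapses as Adam23 is, was not called. Adam11 measured 7.80, 6.65 and 9.95 RPKM in SIX2+ against 1.97, 2.21 and 3.49 in SIX2− libraries (1.37 ± 0.21, adjusted p = 0.000264), and 7.53, 6.77 and 9.52 in GFP+ against 2.15, 1.71 and 2.17 in GFP− libraries (1.56 ± 0.21, adjusted p = 6.15e-05). Adam23 measured 1.81, 2.35 and 1.66 RPKM in SIX2+ against 0.296, 0.432 and 0.510 in SIX2− libraries, and 1.76, 1.69 and 1.84 in GFP+ against 0.528, 0.366 and 0.360 in GFP− libraries. The ratio of its means was 4.71 and 4.21, with folds of 1.05 ± 0.15 (adjusted p = 0.000137) and 0.96 ± 0.15 (adjusted p = 0.000225). Adam22 lay between 1.41 and 2.65 RPKM in the 12 libraries of these sorts.

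ADAMTS enzymes that cleave versican and related hyaluronan-binding proteoglycans were lower in progenitors for 5 of 6 tested members in the SIX2 sort and 4 of 6 in the GFP sort. Among all genes, 15.9% and 17% were lower in these sorts. Adamts5, an aggrecanase and versicanase, measured 0.135, 0.148 and 0.0940 RPKM in SIX2+ against 5.94, 5.61 and 6.35 in SIX2− libraries (−2.63 ± 0.14, adjusted p = 8.16e-09), and 0.186, 0.225 and 0.107 in GFP+ against 8.35, 9.31 and 8.597 in GFP− libraries (−3.06 ± 0.14, adjusted p = 1.93e-09). The positive libraries of both sorts were near 0 and the negative ones formed a narrow band.

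Adamts1, an abundant member that cuts versican, kept a larger share of its level in progenitors. It measured 11.6, 14.3 and 14.7 RPKM in SIX2+ against 64.4, 48.5 and 36.1 in SIX2− libraries (−1.77 ± 0.28, adjusted p = 0.00027), and 25.1, 28.6 and 47.3 in GFP+ against 87.1, 69.3 and 66.1 in GFP− libraries (−1.16 ± 0.28, adjusted p = 0.00524). Adamts9, a versicanase also needed for cilium formation, measured 8.77, 9.25 and 7.49 RPKM in SIX2+ against 18.3, 22.3 and 23.7 in SIX2− libraries (−1.24 ± 0.16, adjusted p = 4.69e-05). The GFP fractions gave 20.1, 15.7 and 20.4 against 23.7, 22.3 and 23.2 (−0.29 ± 0.16, adjusted p = 0.177, or 0.0372 with the replicate block). The difference between its folds was −0.94 ± 0.22 with an adjusted p of 0.142, 0.0156 with the replicate block, 0.034 in a fit of only the groups compared and 0.0316 without NZC replicate 2.

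Adamts4, an aggrecanase, averaged 0.874 ± 0.150 RPKM in SIX2+ against 2.19 ± 0.211 in SIX2− cells (−0.77, adjusted p = 0.0176) and 1.35 ± 0.165 in GFP+ against 3.999 ± 1.48 in GFP− cells (−1.04, adjusted p = 0.00193). Its SIX2-sort call was lost without SIX2− replicate 2 (adjusted p = 0.0691), SIX2+ replicate 1 (0.0593) or SIX2+ replicate 3 (0.0582), and after quantile normalisation (0.168). Adamts20, which acts on versican in skin, averaged 0.278 against 1.14 RPKM and 0.485 against 2.17 RPKM (−0.72, adjusted p = 0.0113, and −1.09, adjusted p = 0.000466). Its SIX2-sort call was lost without SIX2− replicate 1 (adjusted p = 0.0719) or SIX2+ replicate 3 (0.0521), and after quantile normalisation (0.689). Adamts15, another versicanase, was called in neither sort without the block. Its means were 1.72 against 2.37 RPKM in the SIX2 sort and 5.15 against 3.68 in the GFP sort (0.39, adjusted p = 0.217, or 0.0422 with the block).

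The 3 procollagen N-proteinases, which trim the amino-terminal propeptides of fibrillar procollagens, were all lower in both sorts. Of all genes, 15.9% were lower in the SIX2 sort and 17% in the GFP sort. All 3 averaged under 1 RPKM in SIX2+ and GFP+ cells. They passed the filter through other groups, which favoured this direction, so the count is no result about the class. Adamts2 measured 0.211, 0.214 and 0.216 RPKM in SIX2+ against 2.64, 1.94 and 4.54 in SIX2− libraries (−1.68 ± 0.25, adjusted p = 0.000197), and 0.265, 0.275 and 0.354 in GFP+ against 5.43, 5.27 and 5.98 in GFP− libraries (−2.34 ± 0.25, adjusted p = 7.03e-06). Adamts14 measured 0.282, 0.442 and 0.414 RPKM in SIX2+ against 2.31, 2.44 and 2.99 in SIX2− libraries (−1.37 ± 0.21) and 0.193 to 0.443 in GFP+ against 1.83 to 3.28 in GFP− libraries (−1.45 ± 0.21). Adamts3, which also processes VEGF-C, averaged 0.166 against 1.09 RPKM and 0.250 against 1.501 RPKM (−0.84 and −1.0), and its SIX2-sort fold was −0.25 with an adjusted p of 0.40 after quantile normalisation. Of 6 fibrillar collagen genes in the collagen list, Col1a1, Col1a2, Col3a1, Col5a1 and Col5a2 were lower in both sorts and Col2a1 was higher in both. Col1a1 averaged 8.19 RPKM in SIX2+ against 420.8 in SIX2− cells and 11.6 in GFP+ against 673 in GFP− cells.

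Of the 8 other ADAMTS genes tested, 1 was higher and 2 lower in the SIX2 sort, and 5 were lower in the GFP sort. The shares called were 37.5% and 62.5%, against 24.2% and 32.9% of all genes. Adamts7, which cleaves COMP and thrombospondin family matrix, measured 2.41, 2.15 and 2.80 RPKM in SIX2+ against 12.9, 9.62 and 13.6 in SIX2− libraries (−1.91 ± 0.32, adjusted p = 0.000411), and 4.06, 3.06 and 5.06 in GFP+ against 24.0, 18.6 and 19.3 in GFP− libraries (−2.11 ± 0.32, adjusted p = 0.000137). Adamts10, a fibrillin-binding member, measured 9.83, 13.0 and 14.6 RPKM in SIX2+ against 23.9, 24.3 and 38.4 in SIX2− libraries (−1.13 ± 0.27, adjusted p = 0.00581). The GFP fractions gave 8.75, 13.5 and 18.8 RPKM against 21.9, 26.4 and 32.3 (−0.97 ± 0.27, adjusted p = 0.0123), a call lost without GFP− replicate 3 (adjusted p = 0.0526) or GFP+ replicate 1 (0.0646). Adamts6, its closest relative, was near 0 in GFP+ cells (0.0877, 0.0372 and 0.0450 RPKM against 2.10, 2.56 and 4.04 in GFP− libraries, −1.85 ± 0.24, adjusted p = 4.22e-05). In the SIX2 sort Adamts6 measured 0.273, 0.748 and 0.603 RPKM in SIX2+ against 1.06, 0.852 and 2.33 in SIX2− libraries and was not called (−0.61 ± 0.24, adjusted p = 0.0883).

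Adamts17, related to Adamts19, was the single ADAMTS gene called higher, in the SIX2 sort, with 4.12, 4.93 and 5.03 RPKM in SIX2+ against 1.83, 1.55 and 3.10 in SIX2− libraries (0.88 ± 0.29, adjusted p = 0.0427). That call was lost when SIX2− replicate 1 or 2 or any SIX2+ library was left out (adjusted p from 0.0693 to 0.159), and with a pseudocount of 5 (0.0867), no filter (0.0749) or rescaling to TPM (0.0763). The GFP fractions gave 10.6, 5.39 and 10.3 RPKM against 5.03, 3.82 and 7.27 (0.60 ± 0.29, adjusted p = 0.136), called with the replicate block (0.00749) or without GFP+ replicate 2 (0.0423). Adamts18, known from lung and kidney branching, measured 0.0376, 0.122 and 0.0903 RPKM in SIX2+ against 0.639, 0.418 and 0.377 in SIX2− libraries (−0.45 ± 0.17, adjusted p = 0.0745, or 0.0219 without NZC replicate 2 in the fit). In GFP+ it measured 0.126, 0.143 and 0.153 RPKM against 2.20, 1.72 and 1.57 in GFP− libraries (−1.30 ± 0.17, adjusted p = 3.85e-05). Adamts16, which is known from the developing kidney and gonad, averaged 2.68 against 4.51 RPKM in the SIX2 sort (−0.56, adjusted p = 0.108) and 2.97 against 2.51 in the GFP sort (0.19, adjusted p = 0.582). Without SIX2− replicate 3 its SIX2-sort fold was −0.78 with an adjusted p of 0.0278.

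The 3 tested ADAMTSL genes, whose proteins lack the protease domain, were lower in progenitors in both sorts, where 15.9% and 17% of all genes were lower. All 3 were under 1 RPKM in every SIX2+ and GFP+ library. Since they passed the filter through other groups, it favoured this direction, and the count is no result about the family. Adamtsl1 measured 0.0699, 0.0808 and 0.0824 RPKM in SIX2+ against 3.80, 4.36 and 6.35 in SIX2− libraries (−2.41 ± 0.17, adjusted p = 1.1e-07), and 0.0899, 0.134 and 0.166 in GFP+ against 8.77, 9.36 and 11.5 in GFP− libraries (−3.26 ± 0.17, adjusted p = 4.32e-09). Adamtsl4 measured 0.299, 0.227 and 0.394 RPKM in SIX2+ against 3.27, 1.98 and 2.51 in SIX2− libraries (−1.44 ± 0.36, adjusted p = 0.0085). Its GFP-sort values were 0.268, 0.337 and 0.238 RPKM against 5.92, 4.33 and 5.16 (−2.25 ± 0.36, adjusted p = 0.000244). Adamtsl5 stayed between 0.0103 and 0.0576 RPKM in the 6 SIX2+ and GFP+ libraries and between 1.32 and 2.68 in the 6 SIX2− and GFP− libraries. Summed over the 5 ADAMTSL genes, the level was 0.896 ± 0.164 RPKM in SIX2+ and 0.681 ± 0.0495 in GFP+ against 9.81 ± 2.10 in SIX2− and 17.2 ± 1.66 in GFP− cells (SD, n = 3 each).

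The MMP transcripts were dominated by Mmp14, the membrane-type enzyme that activates proMMP2 and cuts fibrillar collagen, and by Mmp2, the constitutive gelatinase. Both were lower in progenitors, by 2.15-fold and 4.16-fold in the SIX2 sort and by 2.42-fold and 4.5-fold in the GFP sort. Mmp2 measured 23.3, 31.3 and 22.0 RPKM in SIX2+ against 108, 95.7 and 115 in SIX2− libraries (−2.03 ± 0.23, adjusted p = 1.33e-05), and 32.5, 30.4 and 34.2 in GFP+ against 173, 136 and 128 in GFP− libraries (−2.13 ± 0.23, adjusted p = 6.14e-06). Mmp14 measured 52.9, 56.8 and 67.0 RPKM in SIX2+ against 111, 112 and 157 in SIX2− libraries (−1.08 ± 0.21, adjusted p = 0.00162), and 81.8, 63.5 and 81.3 in GFP+ against 199, 159 and 190 in GFP− libraries (−1.27 ± 0.21, adjusted p = 0.000355). Progenitor libraries still held Mmp14 at over 50 RPKM. Mmp14 made up 45.5% to 54.1% of the summed MMP RPKM in progenitor libraries and 40.6% to 48.9% in SIX2− and GFP− libraries, whereas Mmp2 made up 16% to 25.1% against 33.0% to 39.4%.

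Of the other membrane-type MMPs, Mmp15 and Mmp17 were lower in both sorts and Mmp16 in the GFP sort. Mmp15 measured 4.22, 3.98 and 6.17 RPKM in SIX2+ against 7.48, 8.61 and 13.2 in SIX2− libraries (−0.88 ± 0.26, adjusted p = 0.0208), and 5.47, 4.56 and 7.21 in GFP+ against 12.3, 9.83 and 19.7 in GFP− libraries (−1.11 ± 0.26, adjusted p = 0.004). The SIX2-sort call was lost without SIX2− replicate 3 (adjusted p = 0.0987), SIX2+ replicate 1 (0.0738) or SIX2+ replicate 2 (0.0859). Mmp17, which is anchored by a GPI tail, measured 0.922, 1.10 and 1.24 RPKM in SIX2+ against 5.71, 5.68 and 6.83 in SIX2− libraries (−1.76 ± 0.22, adjusted p = 4.17e-05), and 0.929, 0.852 and 1.04 in GFP+ against 7.22, 6.76 and 9.83 in GFP− libraries (−2.19 ± 0.22, adjusted p = 3.81e-06). Mmp16 averaged 5.12 against 8.23 RPKM in the GFP sort (−0.60, adjusted p = 0.0291) and 2.997 against 3.62 in the SIX2 sort. Its GFP-sort call was lost without GFP− replicate 1 or 2 or GFP+ replicate 2 or 3 (adjusted p from 0.053 to 0.132).

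Mmp11, a furin-activated stromelysin, came after Mmp14 and Mmp2 among MMPs in progenitors by group means, though in SIX2+ replicate 3 it was above Mmp2 (22.0 RPKM). It measured 22.2, 21.2 and 26.4 RPKM in SIX2+ against 23.6, 24.5 and 28.1 in SIX2− libraries (−0.12 ± 0.25, adjusted p = 0.792), and 19.8, 18.8 and 20.7 in GFP+ against 27.7, 23.0 and 25.9 in GFP− libraries (−0.35 ± 0.25, adjusted p = 0.315, or 0.0131 with the replicate block). Without NZC replicate 2 in the fit the GFP-sort adjusted p was 0.0267. Mmp23, a membrane-linked member without the cysteine switch, measured 6.01, 6.84 and 7.72 RPKM in SIX2+ against 12.1, 10.1 and 7.35 in SIX2− libraries and was not called (−0.44 ± 0.25, adjusted p = 0.243). The GFP fractions gave 3.77, 5.54 and 4.41 RPKM against 12.0, 10.3 and 5.56 (−0.83 ± 0.25, adjusted p = 0.0203), a call lost without GFP− replicate 1 or 2 or GFP+ replicate 1 or 3 (adjusted p from 0.056 to 0.103).

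The TIMPs parted by gene. Timp3, the matrix-bound inhibitor with the widest reach over ADAM and ADAMTS enzymes, was 14.6-fold lower in SIX2+ and 11.7-fold lower in GFP+ cells by the ratio of means. It measured 6.33, 4.78 and 1.28 RPKM in SIX2+ against 71.4, 59.5 and 49.7 in SIX2− libraries (−3.72 ± 0.41, adjusted p = 1.13e-05), and 8.80, 4.77 and 6.66 in GFP+ against 102, 75.8 and 57.7 in GFP− libraries (−3.36 ± 0.41, adjusted p = 2.19e-05). Every progenitor library was under 9 RPKM and every negative library over 49. Timp3 (chr10:86300372-86349506, GRCm38) lies inside Syn3 on the opposite strand with some exon overlap, and Syn3 averaged between 0.374 and 1.60 RPKM in the 7 groups.

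Timp2, which both inhibits MMP2 and bridges its precursor to MMP14, did not pass the test in any comparison. It measured 60.3, 61.1 and 71.4 RPKM in SIX2+ against 56.9, 55.3 and 59.6 in SIX2− libraries (0.16 ± 0.22, adjusted p = 0.68), and 70.2, 53.1 and 57.0 in GFP+ against 75.0, 62.2 and 55.5 in GFP− libraries (−0.09 ± 0.22, adjusted p = 0.778). Timp1, an inducible inhibitor with growth factor activity, measured 9.03, 6.92 and 8.81 RPKM in SIX2+ against 16.6, 14.99 and 13.5 in SIX2− libraries (−0.80 ± 0.16, adjusted p = 0.00206), and 6.81, 6.34 and 5.33 in GFP+ against 11.7, 9.97 and 9.17 in GFP− libraries (−0.65 ± 0.16, adjusted p = 0.00631). Timp4, the TIMP of heart and brain, was at most 0.192 RPKM in any library and was not tested.

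**Figure D3:**
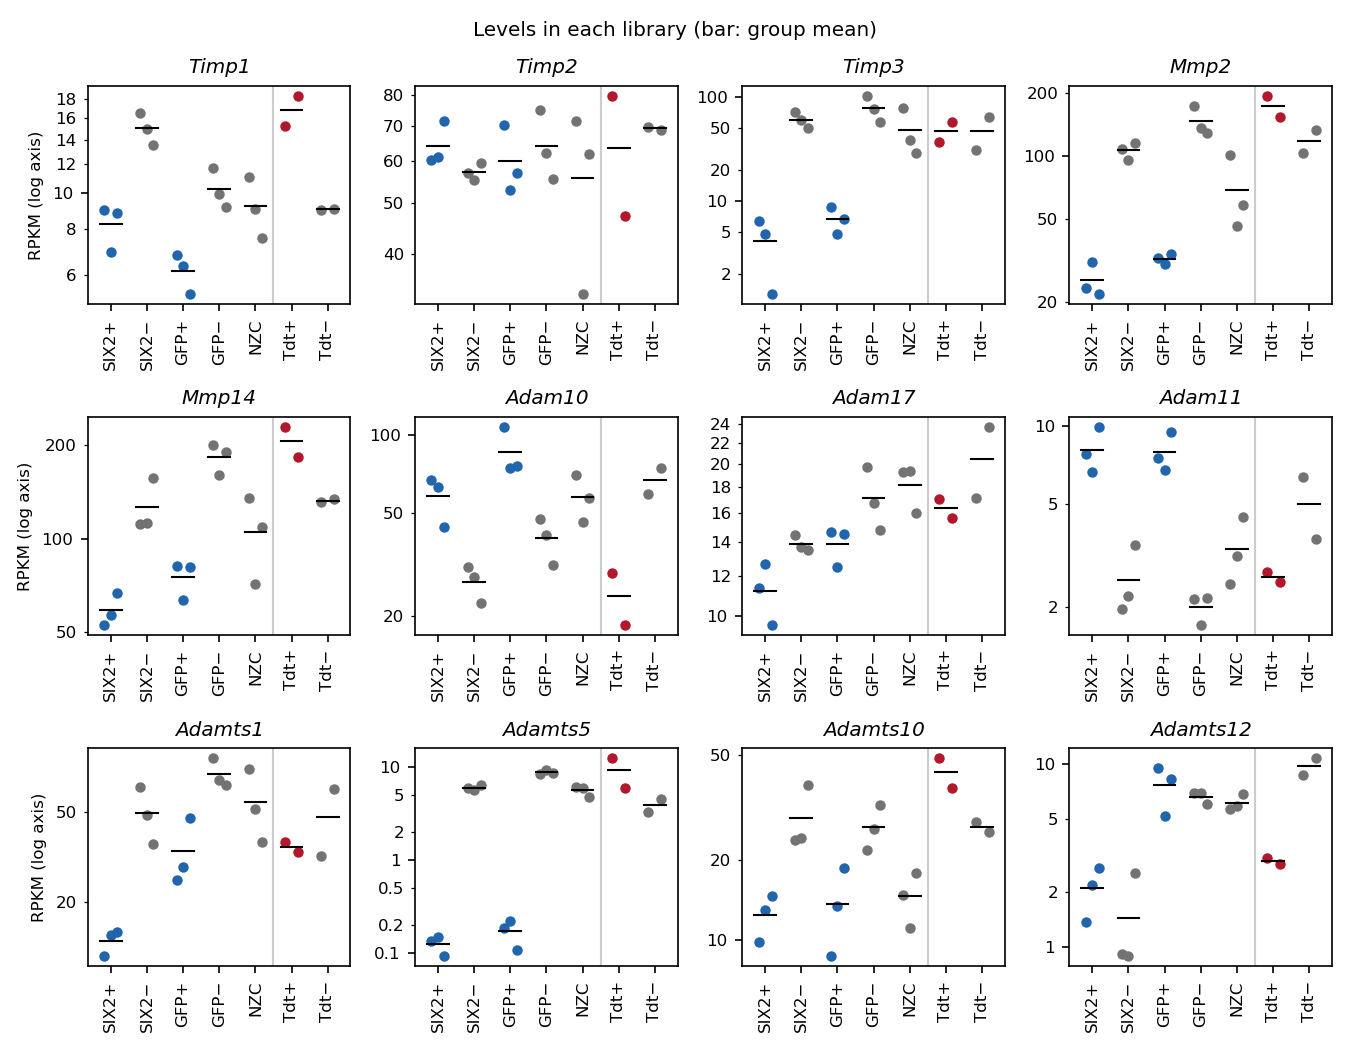
RPKM of 12 members in each library on log axes, 1 panel a gene, with groups on the horizontal axis, points for libraries and a bar at the group mean (blue SIX2+ and GFP+, red Tdt+, grey the rest; the E14.5 groups stand right of the grey line). Timp3 and Adamts5 fall to the bottom of their panels in SIX2+ and GFP+, Timp2 stays between 33.7 and 79.8 RPKM in every library, and Adam10 and Adam11 are highest in SIX2+ and GFP+ among the sorted E16.5 groups.

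The make-up of the TIMP pool differed accordingly. Timp2 made up 79.7% to 87.6% of the summed TIMP RPKM in SIX2+ and 81.8% to 82.7% in GFP+ libraries, and 39.3% to 48.5% in SIX2− and 39.7% to 45.4% in GFP− libraries. Timp3 made up 1.57% to 8.36% and 7.43% to 10.3% in the progenitor libraries and 40.4% to 49.2% and 47.2% to 54.1% in the negative ones. The summed TIMP level was 76.7 ± 4.46 RPKM in SIX2+ against 133 ± 11.3 in SIX2− and 73.0 ± 11.4 in GFP+ against 153 ± 33.5 in GFP− cells (SD, n = 3 each), while the summed MMP level was 124 ± 10.1 against 290 ± 38.1 and 144.5 ± 14.7 against 396.5 ± 44.5. Summed TIMP per summed MMP ran from 0.583 to 0.666 in SIX2+ and 0.369 to 0.529 in SIX2− libraries, which did not overlap, and from 0.446 to 0.568 in GFP+ and 0.315 to 0.425 in GFP− libraries. Timp2 per Mmp14 was 1.09 ± 0.0412 in SIX2+, 0.799 ± 0.0851 in GFP+, 0.462 ± 0.0717 in SIX2− and 0.353 ± 0.0532 in GFP− cells. These are ratios of transcript levels and were not tested.

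Summed over each family, the ADAM level was no lower in progenitors. ADAM transcripts summed to 115 ± 11.5 RPKM in SIX2+ against 93.4 ± 7.09 in SIX2− and to 146 ± 20.2 in GFP+ against 123 ± 20.5 in GFP− cells, with Adam10 as the main part. ADAMTS transcripts summed to 53.9 ± 4.84 RPKM in SIX2+, 144 ± 9.44 in SIX2−, 99.6 ± 22.3 in the GFP+ group and 199 ± 12.0 in the GFP− group. The NZC sums were 129 ± 25.4 RPKM for ADAM, 149 ± 25.8 for ADAMTS and 224 ± 69.5 for MMP genes, with NZC replicate 2 among them.

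The progenitor fractions of the sorts were then set against each other. These comparisons share libraries with those above. Between SIX2+ and GFP+ cells, 4 members were lower and none higher in SIX2+ cells by limma (3 higher at an unadjusted p under 0.05), where 3.06% of all genes were called, 0.774% as higher and 2.29% as lower. The 4 were Adamts12, Adamts15, Adamts1 and Adamts9, all ADAMTS genes. Adamts12, a relative of Adamts7, measured 1.38, 2.20 and 2.71 RPKM in SIX2+ against 9.48, 5.18 and 8.23 in GFP+ libraries (−1.47 ± 0.26, adjusted p = 0.0063). It differed between the negative fractions as well, with 0.922, 0.900 and 2.54 RPKM in SIX2− against 6.93, 6.90 and 6.05 in GFP− libraries (−1.70 ± 0.26, adjusted p = 0.00236), and within each sort it was not called (0.38, adjusted p = 0.348, and 0.15, adjusted p = 0.701). Adamts15, Adamts1 and Adamts9 gave −1.19 ± 0.23, −1.21 ± 0.28 and −1.05 ± 0.16 (adjusted p = 0.0114, 0.0294 and 0.00308). The Adamts1 call was lost in 6 of 16 alternatives, among them any SIX2+ library left out (adjusted p up to 0.142), that of Adamts15 in 3 of 15 (up to 0.0659), that of Adamts12 without GFP+ replicate 1 (0.0508), and that of Adamts9 in none of 16. The number of members lower ran from 1 to 4 as single SIX2+ or GFP+ libraries were left out, and was 1 without GFP+ replicate 1 and 2 without GFP+ replicate 3 or SIX2+ replicate 3.

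Between SIX2− and GFP− cells, 7 members were lower in SIX2− cells (Adamts12, Adamts17, Mmp16, Adamts18, Adamts19, Adamtsl1 and Adamts5) and none was higher by limma (2 at an unadjusted p under 0.05), where 10.1% of all genes were called, 5.7% as higher and 4.39% as lower. Of all genes called in this comparison 56.5% were higher, and 25.1% after rescaling to TPM. With the replicate block 26 members were lower and 2 higher (all genes 1938 and 3559), with NZC replicate 2 left out of the fit 16 and 2 (all genes 1157 and 2092), and without GFP− replicate 1 or SIX2− replicate 2 the number lower was 4. The block here joins libraries from kidneys without and with the labelled allele, so it is not a test of matched fractions. The Adamts5 call was lost in 8 of 16 alternatives, among them any 1 library of these groups left out (adjusted p from 0.0599 to 0.173). That of Adamts17 was lost in 7 of 16 (up to 0.19) and that of Mmp16 without GFP− replicate 1 or SIX2− replicate 2 (0.0541 and 0.0614). Erythroid markers summed to 3.68 to 16.2 RPKM in SIX2− and 817 to 8435 in GFP− libraries, and their part was not tested. The sort method, the dissected tissue and the allele differ together between these groups and cannot be told apart.

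The fold in the SIX2 sort differed from that in the GFP sort for 1 of 41 members by the interaction test, Adamts19, where 0.141% of all genes were called, 0.0469% as higher and 0.0938% as lower. Adamts19 measured 2.66, 3.21 and 2.31 RPKM in SIX2+ and 3.42, 2.59 and 2.65 in SIX2− libraries (−0.06 ± 0.15, adjusted p = 0.833). The GFP fractions gave 1.59, 1.66 and 1.67 RPKM in GFP+ against 5.99, 6.52 and 6.57 in GFP− libraries (−1.48 ± 0.15, adjusted p = 3.56e-06). The difference of the folds was 1.42 ± 0.21 (adjusted p = 0.0266). It was lost when any 1 GFP+ or GFP− library, SIX2− replicate 2, or SIX2+ replicate 1 or 2 was left out (adjusted p from 0.0611 to 0.103). No member had a called difference in the other direction (3 at an unadjusted p under 0.05). With the replicate block, Adamts18, Adamts6, Adamtsl1 and Adamtsl4 were called in the same direction as Adamts19 (adjusted p = 0.0208, 0.026, 0.0271 and 0.0379).

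At E14.5, Foxd1-lineage stromal cells were compared with the rest of the kidney. In Tdt+ against Tdt− cells, 6 of 41 members were lower and none was higher by limma (4 at an unadjusted p under 0.05), where 8.44% of all 12364 genes were called, 1.22% as higher and 7.21% as lower. The median log2 fold change was −0.17 for members and −0.04 for all genes, and the libraries did not overlap for 25 members (61%, against 54.5% of all genes). The 6 were Adamts16, Adamts4, Adam12, Adam10, Adamts12 and Adam23. Over all genes 151 were higher and 892 lower, and 240 and 485 after quantile normalisation. Rescaling to TPM moved the median of all genes from −0.04 to −0.26, and 6 members were lower there too.

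Adamts16 measured 0.0212 and 0.119 RPKM in Tdt+ against 2.48 and 3.39 in Tdt− libraries (−1.87 ± 0.24, adjusted p = 0.00374). Adamts16 and Adam23 were under 1 RPKM in both Tdt+ libraries. These genes passed the filter only through Tdt−, where they had to be higher. Adam10, higher in progenitors at E16.5, measured 29.4 and 18.6 RPKM in Tdt+ against 59.1 and 74.9 in Tdt− libraries (−1.47 ± 0.28, adjusted p = 0.0164). Adam23 measured 0.455 and 0.284 against 1.99 and 1.44 RPKM (−0.98 ± 0.24, adjusted p = 0.0427), a call lost in 6 of 9 alternatives (adjusted p up to 0.461, with a fold of −0.34 after quantile normalisation, and 0.0612 without Tdt+ replicate 2). Adam11 measured 2.73 and 2.51 RPKM in Tdt+ against 6.38 and 3.67 in Tdt− libraries and was not called (−0.70 ± 0.29, adjusted p = 0.204). Adamts12 measured 3.06 and 2.85 against 8.73 and 10.8 RPKM (−1.44 ± 0.25, adjusted p = 0.0123).

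Adam12 and Adamts4 were lower in Tdt+ cells although both were also lower in progenitors at E16.5. Adam12 measured 1.68 and 1.70 RPKM in Tdt+ against 4.94 and 8.39 in Tdt− libraries (−1.47 ± 0.29, adjusted p = 0.0204), and Adamts4 2.30 and 0.872 against 5.21 and 7.01 RPKM (−1.51 ± 0.33, adjusted p = 0.0294). Both calls were lost after quantile normalisation (adjusted p = 0.0678 for each) and with no filter (0.128 for Adam12 and 0.162 for Adamts4). That of Adamts4 was also lost with a pseudocount of 0.1 (0.0509). Endothelial markers summed to 17.9 to 27.3 RPKM in Tdt+ and 68.6 to 94.7 in Tdt− libraries, leukocyte markers to 1.95 to 6.58 and 26.5 to 84.9, and nephron progenitor markers to 10.7 to 14.6 and 244 to 271.5. Their part in these results was not tested. Of the 20 members lower in both E16.5 sorts, 2 were lower, none was higher and 18 were not called in Tdt+ cells. Among all genes, 7.21% were lower and 1.22% higher there. The log2 fold change in Tdt+ cells was positive for 13 of these 20 members.

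The 3 largest positive folds in Tdt+ cells, those of Adamts5, Adamtsl1 and Timp1, were not called. Adamts5 measured 12.5 and 6.02 RPKM in Tdt+ against 3.31 and 4.51 in Tdt− libraries (1.0 ± 0.35, adjusted p = 0.136), Adamtsl1 11.8 and 7.70 against 3.42 and 6.20 (0.90 ± 0.33, adjusted p = 0.149), and Timp1 15.3 and 18.4 against 9.002 and 9.09 (0.82 ± 0.23, adjusted p = 0.0733). Timp1 was called without Tdt+ replicate 1 (adjusted p = 0.0183), and Adamts5 and Adamtsl1 without Tdt+ replicate 2 (0.00917 and 0.0474). Mmp14 measured 228 and 182 RPKM in Tdt+ against 131 and 134 in Tdt− libraries (0.62 ± 0.28, adjusted p = 0.232), and Mmp2 193 and 153 against 103 and 132 (0.56 ± 0.28, adjusted p = 0.292). In these 5 genes both Tdt+ libraries lay above both Tdt− libraries.

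Other abundant members were not called. Timp3 measured 36.7 and 57.9 RPKM in Tdt+ against 30.9 and 63.4 in Tdt− libraries (0.06 ± 0.37), and Timp2 79.8 and 47.4 against 69.8 and 68.7 (−0.17 ± 0.29). Adamts1 measured 37.0 and 33.4 against 32.0 and 63.5 RPKM, Adamts9 39.8 and 27.4 against 20.96 and 28.6, and Adamts10 48.6 and 37.6 against 27.9 and 25.6 (0.66 ± 0.23, adjusted p = 0.136). Adamts7 measured 23.0 and 14.9 against 14.8 and 18.2 RPKM, Adam19 22.5 and 16.9 against 18.9 and 24.8, and Adam17 17.1 and 15.6 against 17.2 and 23.7. Adam9 measured 15.6 and 11.1 against 16.7 and 22.2 RPKM, and Adam15 7.65 and 5.36 against 13.2 and 14.1 (−0.98 ± 0.26, adjusted p = 0.0581, or 0.00806 without Tdt+ replicate 1). Mmp11 measured 54.7 and 29.5 against 29.0 and 22.3 RPKM (0.64 ± 0.32, adjusted p = 0.279, or 0.016 without Tdt+ replicate 2), Mmp15 17.4 and 10.5 against 9.43 and 9.66, and Mmp23 9.48 and 8.27 against 15.1 and 13.8 (−0.65 ± 0.23, adjusted p = 0.144, or 0.0469 without Tdt+ replicate 1).

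**Figure D4:**
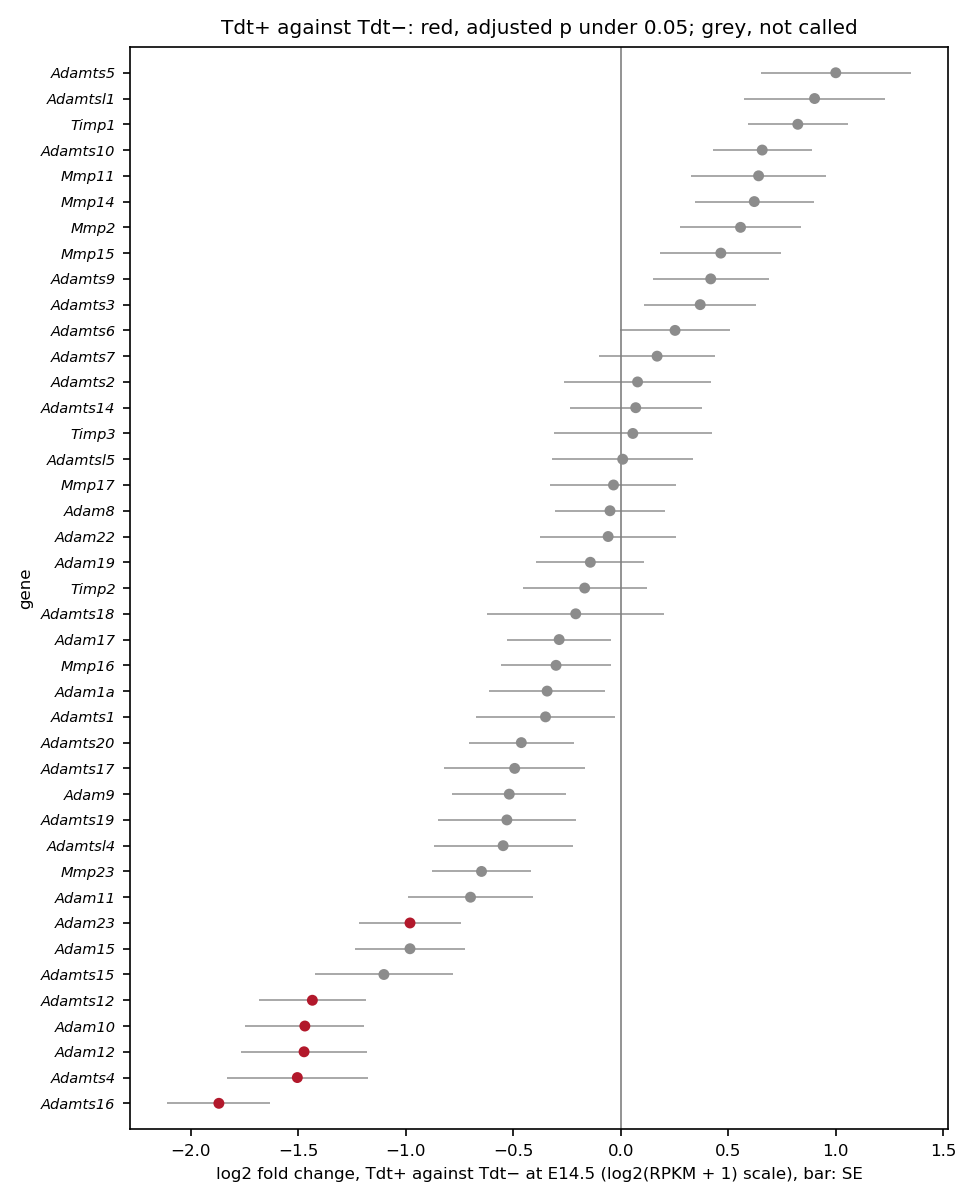
Log2 fold change of the 41 tested members in Tdt+ against Tdt− cells at E14.5, on the log2(RPKM + 1) scale, 1 row a gene in order of the fold, with standard errors as bars. The 6 called members, in red, all lie left of 0, from Adam23 at −0.98 to Adamts16 at −1.87, and Adamts5, Adamtsl1 and Timp1 head the uncalled ones.

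The E14.5 calls rested on few libraries. The number of members lower was 0 without Tdt− replicate 2 and 13 without Tdt+ replicate 1, and the number higher was 1 without Tdt+ replicate 1 and 4 without Tdt+ replicate 2. With no filter on low values no member was called, and Adamts16 came closest (adjusted p = 0.0514). Timp2 per Mmp14 was 0.260 and 0.350 in Tdt+ and 0.514 and 0.533 in Tdt− libraries, and Adam10 per Adam17 was 1.19 and 1.72 against 3.16 and 3.44.

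Other genes of protease control were counted from fixed lists. Of 15 tested genes for zymogen activation and ADAM trafficking, 1 was higher and 6 lower in the SIX2 sort (46.7% called, against 24.2% of all genes) and 1 higher and 5 lower in the GFP sort (40%, against 32.9% of all genes). Plau, urokinase, averaged 0.457 against 7.43 RPKM in the SIX2 sort (−2.43, adjusted p = 0.000225), and Tspan5, a tetraspanin partner of ADAM10, 4.77 against 15.1 RPKM (−1.48, adjusted p = 4.66e-06). In the GFP sort the higher gene was Rhbdf2, the iRhom that carries ADAM17 to the surface, with 7.62 RPKM in GFP+ against 1.88 in GFP− cells (1.56, adjusted p = 2.68e-05) and 1.20 in Tdt+ against 5.06 in Tdt− cells (−1.47, adjusted p = 0.0129). In Tdt+ cells 3 of 15 were lower (20%, against 8.44% of all genes), among them Tspan33 (listed at 0 in both Tdt+ libraries, mean 2.76 RPKM in Tdt−) and Tspan15 (−1.10, adjusted p = 0.0373).

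Of 8 tested genes of other inhibitors and clearance receptors, 1 was higher and 5 lower in each E16.5 sort. The share called was 75% in each sort, against 24.2% and 32.9% of all genes. The higher one was Spock2, a testican proteoglycan, at 149 RPKM in SIX2+ against 11.5 in SIX2− cells (3.94, adjusted p = 0.000112), 168 in GFP+ against 7.67 in GFP− cells (4.38, adjusted p = 3.24e-05) and 2.12 in Tdt+ against 113 in Tdt− cells (−5.18, adjusted p = 0.000117). Its place in this list does not show that it inhibits proteases, and its activity was not examined. Serpine2, protease nexin-1, averaged 5.63 against 89.0 RPKM in the SIX2 sort (−3.77, adjusted p = 2.73e-08). Lrp1, the endocytic receptor that clears several of these enzymes, averaged 11.1 against 45.02 RPKM in the GFP sort (−1.94, adjusted p = 4.01e-06). Of 7 other metalloproteases tested, 1 was higher and 3 lower in the SIX2 sort (57.1% called) and 2 lower in the GFP sort (28.6%, under the 32.9% of all genes), led by Mme, neprilysin, at 0.290 against 11.5 RPKM (−3.26) and 0.863 against 20.6 RPKM (−3.53).

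Vcan and Has2 were higher in progenitors, where most versican-cutting ADAMTS genes were lower. Of 7 tested proteoglycan and hyaluronan genes, 3 were higher and 2 lower in the SIX2 sort and 4 higher and 1 lower in the GFP sort. The share called was 71.4% in each sort, against 24.2% and 32.9% of all genes. Vcan, versican, averaged 85.1 RPKM in SIX2+ against 18.7 in SIX2− cells (2.13, adjusted p = 4.57e-06), 185 in GFP+ against 41.7 in GFP− cells (2.09, adjusted p = 3.94e-06) and 13.3 in Tdt+ against 133 in Tdt− cells (−3.24, adjusted p = 0.000678). Has2, the hyaluronan synthase, averaged 36.4 against 3.62, 31.4 against 4.33 and 2.78 against 21.4 RPKM in the same order (3.03, 2.65 and −2.56). Microfibril and elastic fibre genes were lower in progenitors, 13 of 17 in the SIX2 sort and 14 of 17 in the GFP sort with 1 higher in each. Of 13 collagens, 8 were lower in each sort and 1 and 2 were higher. Among all genes tested, 15.9% were lower and 8.36% higher in the SIX2 sort, and 17% and 15.9% in the GFP sort. In Tdt+ cells 2 of 17 microfibril and 4 of 12 collagen genes were lower and 1 and 0 higher, where 7.21% of all genes were lower and 1.22% higher. Loxl1, an elastin cross-linking enzyme, was the higher one at 62.3 against 20.7 RPKM (1.56, adjusted p = 0.00683).

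Among 24 tested ligands and receptors known to be shed, 2 were higher and 12 lower in the SIX2 sort, 3 higher and 10 lower in the GFP sort, and of 20 tested at E14.5, 9 were lower in Tdt+ cells. The shares called were 58.3%, 54.2% and 45%, against 24.2%, 32.9% and 8.44% of all genes. Met, the HGF receptor, averaged 13.4 RPKM in GFP+ against 1.77 in GFP− cells (2.37, adjusted p = 3.38e-07) and 0.157 in Tdt+ against 9.99 in Tdt− cells (−3.25, adjusted p = 0.00066). Jag1 and Dll1, Notch ligands that ADAM10 can cut, averaged 5.98 against 27.4 RPKM in the SIX2 sort (Jag1, −2.08, adjusted p = 0.000117) and 2.79 against 23.4 and 0.0519 against 4.39 RPKM in Tdt+ and Tdt− cells (−2.66 and −2.36). Cdh1, E-cadherin, averaged 0.339 against 9.21 RPKM in the SIX2 sort (−2.89, adjusted p = 7.72e-06) and 0.199 against 3.65 in the GFP sort (−1.91, adjusted p = 0.000254). Egfr averaged 0.233 against 9.19 RPKM in the GFP sort (−3.04, adjusted p = 8.79e-08).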

How the data were processed

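Poly(A) RNA of 19 libraries in 7 groups was made with a stranded Kapa mRNA kit, per the labels' protocols. TopHat2, Partek and mm10 appear in the submitters' processing notes, without versions or roles. No source used here names the gene annotation or says whether counting used strand. The authors deposited RPKM values, 1 per gene and library, in a file for each age, normalised separately. They are titled TPM, but TPM columns sum alike, whereas these sums varied by 8.01% (coefficient of variation, E16.5) and 13.8% (E14.5), and by 2.70% and 2.94% after multiplication by exonic length. Each file held 27 names turned into dates, which were not used. Depth was estimated from the steps between low values, with 53.2% to 69.9% of them at whole reads (tolerance 0.05 reads). Since the depth was chosen to raise that share, reads were not taken as recovered and count models were left out.

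The tested quantity was log2(RPKM + 1), with limma 3.58.1 (eBayes, trend in mean level, two-sided tests) under R 4.3.3 and the data.table package (version 1.17.8). Genes at 1 RPKM or more in at least 3 of 15 libraries (E16.5) or 2 of 4 (E14.5) were tested, and p-values were adjusted by Benjamini-Hochberg over all of them. The 15 libraries entered 1 fit of 5 group means, and the E14.5 libraries a fit of their own with 2 residual degrees of freedom. Neither fit used the replicate numbers. The main tests thus leave out the pairing accepted below for some groups, which entered only with the replicate block as an alternative. Every adjusted p is from limma. The scripts were tested on simulated data. Positions came from GENCODE M21 (GRCm38) and upstream windows from RefSeq. Tables and plots were made with matplotlib 3.10.9, pandas 2.3.3 and numpy 2.4.6 in python 3.11.15. Proteins were not analysed here.

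Members and lists were chosen with earlier results of these data known. The rule for full values took the most changed called members, up to 10 in each direction of a main comparison. It also took members reaching a group mean of 10 RPKM, and Timp1 to Timp4, Adam10, Adam17, Mmp2, Mmp9 and Mmp14. Some of these, among them Adam9, Adam15, Adamts4, Adamtsl5 and Timp4, were given partly as means, ranges or highest values. Single NZC values were given only for Adam10. Members outside that rule with values of single libraries were chosen after their values were seen. Of each other list, up to 3 called genes with the largest change in a comparison were eligible for naming. Col5a1 and Col5a2, and Col2a1 in the E16.5 sorts, were named outside that rule.

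Libraries with the same number were compared by their deviations from the group mean. Across genes these correlated for SIX2+ and SIX2− (r = 0.641, 0.279 and 0.676), GFP+ and GFP− (0.454, 0.445 and 0.389) and SIX2− and GFP− (0.458, 0.440 and 0.552), and these numbers were taken as pairs. For SIX2+ and GFP+ (0.398, −0.018 and 0.584) they were not. SIX2− and GFP− cells came from different kidneys, without and with the labelled allele. Their shared number therefore cannot mark fractions of 1 sample, and what it marks is not stated. Pseudocounts of 0.1 and 5, no filter, a filter at 5 RPKM, quantile and median-of-ratios scaling, TPM, fits of only the groups compared or without NZC replicate 2, the replicate block and leaving out each library were tried.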

Additional observations from a re-analysis of the deposited data

Results flagged for a closer look

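Adamts19, a secreted ADAMTS protease, differed in its fold between the sorts by a test of the difference itself: the log2 fold change in SIX2+ against SIX2− cells exceeded that in GFP+ against GFP− cells by 1.42 ± 0.21 (limma interaction, adjusted p = 0.0266). The GFP− libraries were the highest of the 4 sorted groups (5.99 to 6.57 RPKM) and the GFP+ libraries the lowest (1.59 to 1.67), with SIX2+ and SIX2− between them (2.31 to 3.42). Over its alternatives the adjusted p ran from 0.00255 to 0.103.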

How the results depend on the processing

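Counts of called genes moved more than their directions, and no named member reversed while called. The cause of each move was not tested, beyond what fewer genes or libraries in a fit entail. In the SIX2 sort the higher genes (1070) became 1634 in a fit of only the groups compared and 1729 without NZC replicate 2, and the lower ones (2031) 1267 with values of at least 5. In the GFP sort the higher genes (2033) became 1313 after rescaling to TPM, the lower ones (2176) 1407 with values of at least 5, and the members higher (3) became 5 with no filter. In the Tdt comparison the higher genes (151) became 8 with no filter, 240 after quantile normalisation and 58 after rescaling to TPM, and the lower ones (892) 221, 407 with values of at least 5 and 485 after quantile normalisation. Members lower there (6) became 0 with no filter, 3 with values of at least 5 and 3 after quantile normalisation.

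Between SIX2+ and GFP+ the higher genes (99) became 52 after rescaling to TPM, 281 with only the groups compared and 374 without NZC replicate 2, and the lower ones (293) 488 and 606 under the last settings. Members higher (0) became 1 with a pseudocount of 0.1 and 1 without NZC replicate 2. Between SIX2− and GFP− the higher genes (730) became 361 with median-of-ratios scaling, 221 after rescaling to TPM, 1790 with only the groups compared and 2092 without NZC replicate 2, and the lower ones (562) 1043 and 1157. Members higher (0) became 1 with a pseudocount of 5, 1 with only the groups compared and 2 without NZC replicate 2, and members lower (7) became 13 and 16. For the difference of the sorts, genes higher (6) became 14 with a pseudocount of 5, 3 after rescaling to TPM, 65 with only the groups compared and 37 without NZC replicate 2. Genes lower (12) became 7 with a pseudocount of 0.1, 24 with 5, 6 with no filter, 7 with quantile and 7 with median-of-ratios scaling, 5 after rescaling to TPM, 75 and 51. Members higher (1) became 2, and lower (0) 1 and 1, with only the groups compared and without NZC replicate 2.

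With the replicate number as a block, genes higher became 3350 in the SIX2 sort, 3620 in the GFP sort (members 5), 614 in the Tdt comparison (members 4), 716 between SIX2+ and GFP+ (members 2), 3559 between SIX2− and GFP− (members 2) and 168 for the difference (members 5). Genes lower became 1693 in the Tdt comparison, 821 between SIX2+ and GFP+ (members 9), 1938 between SIX2− and GFP− (members 26) and 247 for the difference (members 1). Same-numbered Tdt+ and Tdt− libraries correlated at 0.399, but with 2 pairs the number was not taken as pairing, nor was it for SIX2+ and GFP+.

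Leaving out 1 library at a time gave 665 to 896 genes higher in the SIX2 sort. It gave 51 to 1277 higher and 202 to 2101 lower in the Tdt comparison (members 0 to 4 and 0 to 13), 29 to 105 and 83 to 348 between SIX2+ and GFP+ (members lower 1 to 4), and 87 to 512 and 120 to 488 between SIX2− and GFP− (members 0 to 1 and 4 to 8). For the difference it gave 1 to 11 higher and 0 to 14 lower (members higher 0 to 1). A lone remaining Tdt library was assumed to vary like the other group. Low depth limits NZC replicate 2 and the Tdt+ libraries, and E14.5 calls rest on 2 residual degrees of freedom.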
